A study of Mus musculus with 4 samples.

Results

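A set of 7 genes of glucocorticoid signalling was described across the mouse brain: both receptors that bind corticosterone, the enzyme that regenerates it, and 4 genes that the activated receptors are known to induce. They were taken by symbol from the 32285 genes of the deposited matrix, and all 7 were found: the glucocorticoid receptor Nr3c1, the mineralocorticoid receptor Nr3c2, Hsd11b1, Fkbp5, Sgk1, Tsc22d3 and Zbtb16. The data are 10x Visium counts, in which a section lies on a grid of barcoded spots and each spot, which can cover several cells, gives unique molecular identifiers (UMIs) per gene. The 4 libraries came from left hemispheres of wild-type female C57BL/6 mice from a colony of the National Institutes of Aging, cut coronally at 10 µm.

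Young and aged mice were each represented by 1 library after vehicle and 1 after ethanol, and the labels do not number the animals. Young mice were 3 to 4 months old and aged mice 18 to 20 months old. Vehicle was water, ethanol was given into the stomach at 3 g/kg, and every group was gavaged on alternate days, 10 times in 18 days. Brains were collected 18 hours later. The controls therefore went through the same gavage procedure. The labels call the tissue hippocampal, but the sections also held clusters with the genes of cortex, thalamus, hypothalamus, striatum and white matter. The labels state that meninges were removed, yet a cluster led by the meningeal genes Fmod and Ptgds was present in every section.

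Corticosterone, the main glucocorticoid of rodents, acts through Nr3c2, which binds it with high affinity, and through Nr3c1, which is occupied when the hormone is high. Inside cells, the enzyme encoded by Hsd11b1 regenerates active corticosterone from its inert form. The activated receptors bind DNA elements near target genes, and among those targets Fkbp5 encodes a co-chaperone that lowers hormone binding by the receptor, Sgk1 a kinase that regulates channels and transporters, Tsc22d3 the leucine zipper protein GILZ, and Zbtb16 a zinc finger repressor also called PLZF.

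The promoters of 3 of the induced genes are shown first, because the receptors are known to act through DNA elements of the kind searched for in them. They are the 250 bases before a start site in RefSeq (GRCm38.p6), 5′ to 3′ on the gene's strand. RefSeq lists Sgk1 with 6 start sites, Tsc22d3 with 3 and Fkbp5 with 1, and the one with the longest matching element is printed. Capitals mark a match to the palindromic element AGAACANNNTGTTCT in Sgk1 and to the 6-base unit TGTTCT of which it is made in Tsc22d3, on either strand. A further copy of that unit near the start of the Sgk1 sequence is left in lower case. Fkbp5 has neither in this window, which says nothing of elements elsewhere in the gene.
Sgk1, chr10:21993640-21993889, plus strand: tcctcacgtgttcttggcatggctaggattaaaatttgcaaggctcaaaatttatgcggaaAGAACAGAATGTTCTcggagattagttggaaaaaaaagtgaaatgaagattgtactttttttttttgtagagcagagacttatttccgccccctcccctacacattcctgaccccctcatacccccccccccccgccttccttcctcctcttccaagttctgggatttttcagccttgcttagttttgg
Tsc22d3, chrX:140600523-140600772, minus strand: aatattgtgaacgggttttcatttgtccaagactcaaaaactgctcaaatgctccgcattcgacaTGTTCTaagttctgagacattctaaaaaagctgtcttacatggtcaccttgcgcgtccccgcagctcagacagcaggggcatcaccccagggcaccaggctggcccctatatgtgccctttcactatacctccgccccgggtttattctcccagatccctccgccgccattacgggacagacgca
Fkbp5, chr17:28486150-28486399, minus strand: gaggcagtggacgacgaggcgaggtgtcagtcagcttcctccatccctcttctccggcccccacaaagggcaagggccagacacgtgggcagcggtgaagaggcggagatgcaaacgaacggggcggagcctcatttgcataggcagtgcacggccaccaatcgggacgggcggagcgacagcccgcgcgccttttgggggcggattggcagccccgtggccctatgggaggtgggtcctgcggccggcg

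The complete element of Sgk1 began 189 bases before its start site and was present in 3 of 32841 RefSeq promoters of 300 bases (0.00913%), on either strand. The 6-base unit, which the complete element holds on both strands, was present in 19.0% of them. A looser form, GNACANNNTGTNC, which the complete element also matches, was present in 0.475%, and in Sgk1 alone among the 12 promoters of 5 of the 7 genes that the table held. Nr3c1 and Zbtb16 had no entry. These are matches of letters, and receptor binding was not measured. The genes lie apart in the genome (GRCm38): Hsd11b1 at chr1:193221640-193264045, Nr3c2 at chr8:76898083-77245012, Zbtb16 at chr9:48651797-48836225, Sgk1 at chr10:21882184-21999903, Fkbp5 at chr17:28398753-28486149 and Tsc22d3 at chrX:140539528-140600522.

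After 122 spots with fewer than 500 UMIs were left out, 2642 to 2881 spots and 45995677 to 58305713 UMIs remained in a library. Mitochondrial transcripts made up 13.6% to 14.3% of UMIs in 3 libraries and 16.5% in aged ethanol, and transcripts read as ribosomal RNA carry-over 0.212% to 0.296% in the same 3 and 0.564% in aged ethanol. The sections did not hold the same shares of each region: the relay thalamus cluster held 6.59% and 6.88% of spots with vehicle (young, then aged) but 11.5% and 11.1% with ethanol, and the hypothalamic cluster held 0.884%, 8.09%, 4.48% and 7.31% where the first pair of values is for young and the second for aged mice, each with vehicle before ethanol; all values given by library keep this order. Levels are given as CPM, a gene's UMIs scaled to a total of 1000000 UMIs in the same region and library. Intervals are 95% and cover counting error only. With a single library in each group there was no replicate of an age or gavage effect, and no p-value was computed for any comparison.

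Spots were grouped by expression into 32 clusters without use of the 7 genes. A total of 12 clusters carried the markers of a region and had at least 20 spots in every library: CA1 (Spink8, Fibcd1), CA3 (Homer3, Npy2r), the dentate granule layer (C1ql2, Prox1), upper cortex (Lamp5, Stard8), cortical layer 5 (Fezf2, Myl4), cortical layer 6b (Cplx3, Ccn2), piriform cortex and amygdala (Lypd1, Nr2f2), striatum (Penk, Adora2a), relay thalamus (Prkcd, Ramp3), hypothalamus (Hcrt, Avp), white matter (Opalin, Mal) and meninges. The hypothalamic cluster had only 24 spots in young vehicle. A gene was called higher or lower in a region if its CPM there was 2-fold or more away from that of the other spots, the same way in all 4 libraries, and if both sides together held 20 UMIs or more in each. In such bulk sums, fewer cells of a type and less RNA per cell cannot be told apart. The 1521 genes used to form the clusters were not among the genes tested in region comparisons. The shares of genes given beside regional calls therefore leave them out.

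Nr3c2 was highest in the hippocampal cell layers. In CA1 it reached 113, 151, 134 and 131 CPM, against 23.0, 24.0, 23.5 and 25.02 CPM in the other spots, a median 5.47-fold difference (log2 2.45, range over libraries 2.30 to 2.66). In the dentate granule layer it stood at 92.2, 118, 73.6 and 126 CPM (median log2 ratio 2.01, range 1.42 to 2.23). In CA3 it stood at 77.6, 90.6, 83.1 and 78.9 CPM (1.69, 1.47 to 1.78). All 3 layers were called higher, where 1.42%, 3.65% and 1.05% of genes tested were called higher in CA1, dentate and CA3. The 3 hippocampal ranges overlapped with their neighbour in the order CA1, dentate, CA3, but the lowest hippocampal value lay above the highest of the other 9 regions.

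Outside the hippocampus, the medians of Nr3c2 lay within 1.97-fold. They ran from 25.3 CPM in the striatum (20.5 to 29.3) to 12.9 CPM in the hypothalamus (11.3 to 21.4), and each region's range overlapped that of the next in order. Cortical layer 6b passed 1.5-fold lower in every library, as did 3.69% of genes. These 9 regions rested on 9 to 119 UMIs of Nr3c2 a library.

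Nr3c1 showed a flatter order over regions. It was highest in relay thalamus, at 66.1, 74.4, 78.2 and 92.3 CPM, followed by cortical layer 6b (median 66.2), white matter (65.9) and layer 5 (60.1). It was lowest in CA3, at 27.5, 27.7, 34.0 and 28.8 CPM, and in the dentate granule layer, at 28.7, 28.1, 26.8 and 43.2 CPM. From the lowest to the highest median the spread was 2.70-fold, against 10.3-fold for Nr3c2, and every region overlapped the next in order. No region was called for Nr3c1 at 2-fold. Within the hippocampus, CA1 stood above both other layers: CA3 had a median of 0.558 times and the dentate 0.564 times the CA1 level, and both differences passed 1.5-fold in all 4 libraries, where 2.86% and 3.64% of genes did so in that direction.

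**Figure D1:**
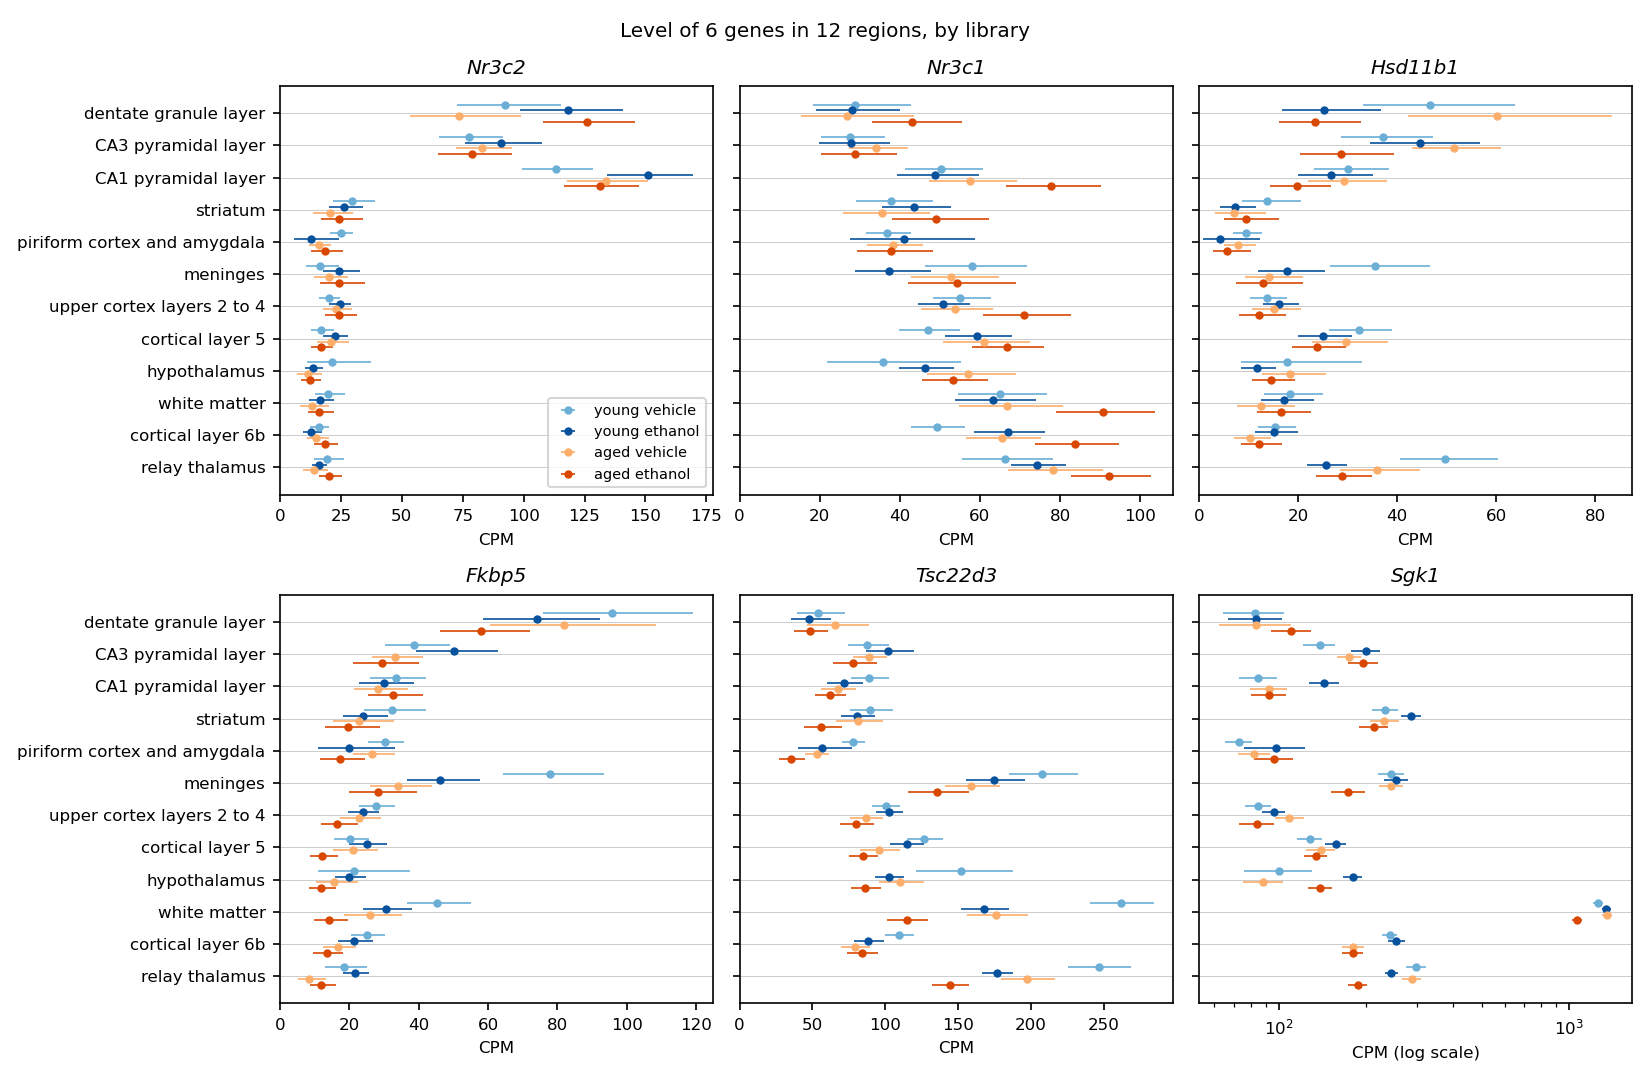
Level of 6 genes in CPM (x axis; logarithmic for Sgk1) in 12 regions (y axis), with 1 point for each of the 4 libraries and bars for the 95% Poisson interval of the UMI count. Nr3c2 stands apart in the 3 hippocampal layers and Sgk1 in white matter (1064 to 1353 CPM), while Nr3c1 has its lowest values in CA3 and the dentate. Fkbp5 has its highest median in the dentate granule layer (58.0 to 95.8 CPM), with a range that overlaps that of meninges (28.4 to 77.9 CPM).

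The share of both receptors' UMIs that came from Nr3c2 was highest in the hippocampal layers. Of all UMIs of both receptors, Nr3c2 gave 76.2%, 80.8%, 73.3% and 74.5% in the dentate granule layer, 73.8%, 76.6%, 70.9% and 73.3% in CA3, and 69.3%, 75.6%, 69.9% and 62.9% in CA1. Over the whole section the share was 32.0% to 37.1%. In the other 9 regions the median share ran from 37.2% in the striatum to 17.8% in relay thalamus, and their highest single value, 43.8% (exact Clopper-Pearson interval 34.4% to 53.4%) in the striatum of young vehicle, lay below the lowest hippocampal one, 62.9% (58.2% to 67.3%) in CA1 of aged ethanol. That CA1 value came with 169 Nr3c1 UMIs, against 93 to 110 in the other libraries. The share compares regions only, since reads of both genes are captured near their 3′ ends with unknown relative efficiency.

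**Figure D2:**
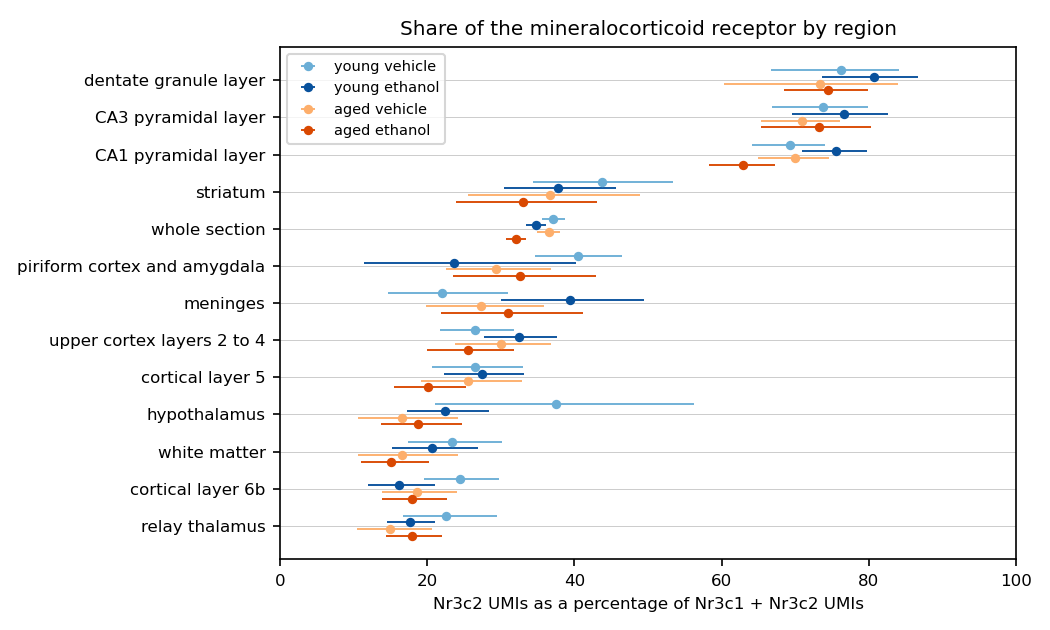
Nr3c2 UMIs as a percentage of Nr3c1 plus Nr3c2 UMIs (x axis) in the whole section and 12 regions (y axis), with 1 point for each library and bars for the exact 95% Clopper-Pearson interval. The 3 hippocampal layers lie between 62.9% and 80.8%, and all other regions at or below 43.8%.

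Hsd11b1, the enzyme, was highest among named regions in CA3 (37.1, 44.6, 51.4 and 28.8 CPM) and the dentate granule layer (46.7, 25.3, 60.2 and 23.4 CPM), and the first 5 regions by median were CA3, dentate, relay thalamus, CA1 and layer 5. Layer 5 (23.7 to 32.2 CPM) did not overlap the next region, white matter (12.6 to 18.4 CPM), although the meninges of young vehicle reached 35.5 CPM. It was called lower in piriform cortex and amygdala (9.44, 4.24, 7.79 and 5.74 CPM; median log2 ratio −1.68, range −2.29 to −1.56), where 0.413% of genes were called lower; this rested on 3 to 43 UMIs. The striatum passed 1.5-fold lower (0.422 times; 3.8% of genes did so). Within cortex, layer 5 stood above the upper layers by a median of 1.96 times, past 1.5-fold in every library, as did 0.71% of genes. Its highest levels lay in clusters that carried no region name: one of 235 spots led by Tshz2, Nrep and Vsig2 (96.3, 50.5, 95.6 and 34.5 CPM) and one of 340 spots led by C1ql2 and Lct (64.9, 51.3, 68.8 and 44.5 CPM). Of the marker lists, that of the dentate granule layer matched the second of these clusters best. In both clusters the vehicle libraries were higher than the ethanol libraries.

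Fkbp5 was highest in the dentate granule layer, at 95.8, 74.1, 81.9 and 58.0 CPM (49 to 82 UMIs). It was called higher there (median log2 ratio 1.70, range 1.51 to 1.90, or 3.25-fold), where 3.65% of genes were called higher, and of the 7 genes the dentate had 2 called higher, Nr3c2 and Fkbp5. Against CA1 the dentate had a median of 2.67 times the Fkbp5 level, past 1.5-fold in every library (7.29% of genes) but short of 2-fold in aged ethanol; without that library the gene was called (median log2 ratio 1.52), beside 2.59% of genes over all 4. The next regions were meninges (77.9, 46.2, 34.1 and 28.4 CPM), which passed 1.5-fold higher, and CA3 (median 36.0), and relay thalamus was lowest (18.3, 21.8, 8.44 and 11.9 CPM). The unnamed cluster of 340 spots with dentate markers had a median of 34.1 CPM (24.6 to 49.9), below the named dentate layer. Over regions, Fkbp5 and Nr3c1 had r = −0.61 over 48 points (12 regions in 4 libraries, which share libraries and depth), while Fkbp5 and Nr3c2 had r = 0.60.

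Sgk1 was highest in white matter. It stood at 1262, 1347, 1353 and 1064 CPM there, on 2145 to 3358 UMIs, and at 187 to 296 CPM in relay thalamus, the next region in order. White matter was above the other spots by a median of 7.27 times (log2 2.86, range 2.80 to 3.08) and above the 3 cortical regions together by 8.31 times (3.05, 2.96 to 3.22), where 3.18% and 4.79% of genes were called higher. The lowest white matter value was above the highest of every other compared region. At the other end, piriform cortex and amygdala was called lower (72.9, 97.5, 82.4 and 95.9 CPM; median log2 ratio −1.34, range −1.65 to −1.03; 0.413% of genes called lower), and upper cortex, CA1 and the dentate passed 1.5-fold lower in every library, beside 2.61%, 6.16% and 4.77% of genes. Among clusters too small to compare in every library, ependyma, the lining of the ventricles, held 877 to 1112 CPM and choroid plexus 405 to 505 CPM. The 8 oligodendrocyte markers were all detected in white matter and summed to 38422 to 44662 CPM there.

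Tsc22d3 was highest in relay thalamus (247, 177, 198 and 145 CPM), white matter (262, 168, 176 and 115 CPM) and meninges (208, 175, 159 and 135 CPM), and the ranges of these 3 regions overlapped. Among named regions it was lowest in the dentate granule layer, at 53.9, 47.8, 65.2 and 48.1 CPM. The unnamed cluster of 340 spots with dentate markers had a higher median, 114 CPM (71.2 to 155). No region was called at 2-fold, while relay thalamus and meninges passed 1.5-fold higher in every library (medians of 1.88 and 1.60 times; 4.25% and 6.89% of genes did so) and the dentate and piriform cortex passed 1.5-fold lower (0.483 and 0.498 times; 4.77% and 1.56%). Against cortex, relay thalamus had a median of 1.96 times the level, past 1.5-fold as were 6.18% of genes. In all 3 of its highest regions, young vehicle had the highest value of the 4 libraries and aged ethanol the lowest.

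Zbtb16 was near the limit of detection. The sections held 126, 102, 32 and 72 UMIs of it, and no single region held more than 16 in a library. White matter had 7.53, 3.21, 1.26 and 2.13 CPM and CA1 4.23, 3.67, 1.04 and 4.13 CPM, and 6 of the 12 regions had no UMI in at least 1 library. CA1 passed 1.5-fold higher than the rest (3.63% of genes), on 2 to 9 UMIs, but each region's range overlapped the next in order.

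The genes whose levels over the same 48 points were most like each of the 7 were named by rule, as a description without a test. Nr3c2 was followed most closely by Sipa1l3, Arpc2 and Lmo1 (r = 0.94, 0.91 and 0.90), and Sgk1 by Slc44a1, Ppp1r14a and Dbndd2 (all r = 0.97), of which Lmo1 and those last 3, like Slc2a1 below, had been used to form the clusters. For Tsc22d3 the closest were Tst, Gpr37l1 and Slc2a1 (0.86, 0.86 and 0.85), and for Fkbp5 Ehd1, Ccnl2 and Fut8 (0.80, 0.80 and 0.79). Nr3c1 had Ell2, Gatad1 and Nfic (0.73, 0.72 and 0.71), Hsd11b1 had 2310009B15Rik, Flt3 and Akain1 (0.71, 0.71 and 0.70), and Zbtb16, with few UMIs, Pou3f3, Nfkbib and Malat1 (0.56, 0.53 and 0.52). Among the 7 themselves, the closest pair was Sgk1 with Tsc22d3 (r = 0.62).

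The wider pathway was read through 5 lists with 69 genes: 36 other glucocorticoid-induced genes, 10 receptor chaperones, 10 coregulators, 9 steroid enzymes and transport genes and 4 other steroid receptors. White matter held many induced genes at high levels. Against cortex, 16 of 35 tested were called higher there and 0 lower, with a median log2 ratio of 1.15 beside −0.26 over all genes tested, and 4.79% of genes called higher. The lipid droplet gene Plin4 (median 10.6 times), the arrestin-like genes Arrdc2 (8.88) and Arrdc3 (6.97), and Ddit4, an inhibitor of mTOR signalling (4.38), led the list. Of the other lists, Srd5a1, which reduces steroids including progesterone and corticosterone, was the 1 of 5 enzyme and transport genes called higher, the progesterone receptor Pgr was lower (0.148 times), and of 10 chaperones and 10 coregulators none was called; 13% of genes were lower. Against all other spots the count of induced genes was 12 of 35, led by Arrdc2, Plin4, Arrdc3 and Pdk4, where 3.18% were called higher.

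In the dentate granule layer, 5 of 35 induced genes were called higher and 2 lower, and the list's median log2 ratio was −0.37 against 0.13 over all genes. Cebpd (8.54 times the level elsewhere), Gpd1 (3.26), Bcl6 (2.97) and Sesn1 (2.68) were the highest, and Dusp1 (0.31) and Cdkn1a (0.36) were lower; 3.65% of genes were called higher and 1.9% lower. Cyp7b1, a hydroxylase of oxysterols and neurosteroids, was also higher (3.66 times). In CA1, 2 of 35 were higher (Cebpd and Bcl6, 3.15 and 2.55 times) and 4 lower (Plin4, Ucp2, Arrdc2 and Cdkn1a, 0.27 to 0.45 times), beside 1.42% and 2.38% of genes, and the coregulator Nrip1 (2.76 times) and the enzyme Akr1c18 (4.44 times) were higher. Meninges had 7 of 35 higher, led by Txnip (4.99), Angptl4 (4.96), Edn1 (4.12) and Sult1a1 (4.03), and the efflux transporter Abcb1a (4.15), where 3.97% of genes were higher. Ddit4 was called higher both in the dentate layer and in white matter against the rest, where 3.65% and 3.18% of genes were. The share of all genes called higher in both is not given here.

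Age and gavage were compared by the ratio of CPM between libraries, over the section and within regions. Each library entered a pair of the 4 comparisons, so these share their libraries and are not independent. A call here needed a ratio of 2-fold or beyond and a count of 50 UMIs or above in the fuller library. Over the section, the 7 genes moved by less than 2-fold in all comparisons except those of Zbtb16 with aged vehicle. Of all genes tested, 1.23% were called higher and 0.955% lower in young ethanol against young vehicle, 0.687% and 0.988% in aged ethanol against aged vehicle, 0.252% and 0.105% in aged against young vehicle, and 0.173% and 0.319% in aged against young ethanol. Within regions, none of the 7 was called for ethanol against vehicle at either age, where 0.113% to 4.16% of genes a region and direction were called in young and 0.134% to 2.55% in aged libraries.

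**Figure D3:**
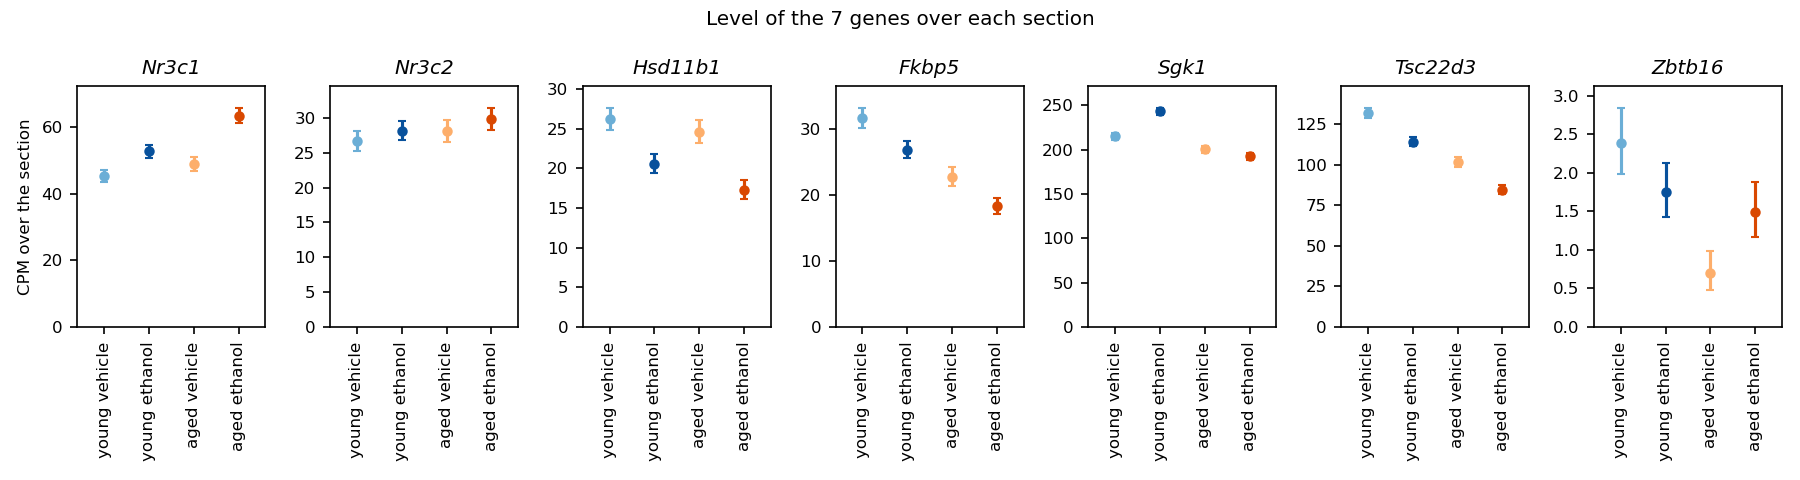
Level of each of the 7 genes over the whole section in CPM (y axis, from 0) in the 4 libraries (x axis), with bars for the 95% Poisson interval. Fkbp5 and Tsc22d3 are highest in young vehicle and lowest in aged ethanol, Nr3c1 is highest in aged ethanol, and Zbtb16 is lowest in aged vehicle.

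Of the receptors, Nr3c1 stood at 45.1, 52.7, 48.9 and 63.4 CPM. Ethanol libraries were above vehicle libraries at both ages, by 1.17 times (1.11 to 1.23) in young and 1.297 times (1.23 to 1.37) in aged, and 13.1% and 6.11% of genes lay as far from no difference in that direction. Relay thalamus, the region with the highest Nr3c1 median, held 11.5% and 11.1% of spots in the ethanol sections (young, then aged). In the vehicle sections it held 6.59% and 6.88%. How far these shares bear on the section ratios of Nr3c1 is not given here. Aged ethanol was the highest library, and it was also the one with more mitochondrial and ribosomal carry-over transcripts. Leaving mitochondrial genes out of the total raised the median log2 ratio of all genes by 0.050 in aged ethanol against aged vehicle. Any other part of these transcripts in the result was not tested. Within regions, aged ethanol was above young ethanol in 10 of 11 regions tested (median 1.25 times) and above aged vehicle in 9 of 12 (1.23 times), with CA1 at 48.8 CPM in young and 77.6 CPM in aged ethanol (1.59 times, 1.23 to 2.07; 2.33% of genes passed 1.5-fold). Young ethanol was above young vehicle in 6 of 10 regions and below it in 4 (median 1.12 times). Among the 4 were the meninges, at 37.4 against 58.1 CPM (0.643 times, 0.457 to 0.902), past 1.5-fold lower as were 3.4% of genes there. Nr3c2 stood at 26.6, 28.1, 28.1 and 29.8 CPM, and all 4 ratios were between 1.05 and 1.06 with intervals that included 1. Within regions, young ethanol was above young vehicle for it in 5 of 10 tested and below in 5 (0.508 to 1.34 times). Of these, 2 passed 1.5-fold lower, as did 0.913% to 12.4% of genes a region. Aged ethanol was above aged vehicle in 4 of 7 and below in 3. The dentate alone passed 1.5-fold, at 126 against 73.6 CPM (1.71 times), as did 6.72% of genes there. In aged against young vehicle 1 of 7 passed 1.5-fold lower (0.635 times), as did 0.855% to 5.41% of genes a region.

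Over the section, Hsd11b1 was lower with ethanol at both ages: the libraries held 26.2, 20.6, 24.6 and 17.3 CPM, with ratios of 0.785 (0.726 to 0.849) in young and 0.704 (0.643 to 0.771) in aged. Neither passed 1.5-fold, and 6.17% and 5.32% of genes lay as far in that direction. With region shares set equal between libraries, the ratios were 0.662 and 0.663, both just past 1.5-fold. The share of all genes that far with equal shares is not given here. With shares as they were, 2.48% and 3.95% of genes passed 1.5-fold lower. Equal shares were set over the 20 clusters with at least 20 spots in every library, which held 89.3% of spots. The other clusters were left out. In relay thalamus young ethanol had 25.7 CPM and young vehicle 49.7 CPM (0.516 times, 0.400 to 0.668), past 1.5-fold as were 1.86% of genes there, and in CA3 aged ethanol had 28.8 CPM against 51.4 CPM in aged vehicle (0.559 times, 0.381 to 0.805; 4.07% of genes passed 1.5-fold). In young mice the CA3 value was instead higher with ethanol, at 44.6 against 37.1 CPM (1.20 times, 0.843 to 1.72). By region, Hsd11b1 was lower with ethanol in 5 of 7 regions tested in young (median 0.890 times) and in 4 of 4 in aged (0.737 times).

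Fkbp5 was highest in young vehicle and lowest in aged ethanol, at 31.6, 26.9, 22.8 and 18.3 CPM over the section. Aged vehicle had 0.719 times (0.665 to 0.778) the young vehicle level, and aged ethanol 0.683 times (0.628 to 0.742) the young ethanol level; 1.34% and 2.16% of genes lay as far in that direction. Ethanol libraries had 0.849 (0.792 to 0.910) and 0.806 (0.736 to 0.882) times the vehicle level in young and aged. None of these 4 section ratios passed 1.5-fold, but that of aged to young ethanol was 0.615 with equal region shares. With shares as they were, 1.85% of genes passed 1.5-fold lower in that comparison. The value with equal shares is not given here for all genes.

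Within regions, aged ethanol was below young ethanol for Fkbp5 in 10 of 11 regions tested, with a median of 0.614 times, and 8 intervals lay below 1. The exception was CA1 (29.9 CPM in young and 32.6 CPM in aged ethanol). White matter (14.0 against 30.5 CPM, 0.461 times, 0.297 to 0.702) and layer 5 (12.2 against 25.1 CPM, 0.486 times, 0.325 to 0.715) were called lower, where 0.518% and 0.188% of genes were. The layer 5 call was lost with mitochondrial genes left out of the total (0.510) and with median-of-ratios size factors (0.518), and at clustering resolution 0.5 (0.626). At resolution 2 white matter had a ratio of 0.375 on fewer than 50 UMIs and was not called. In meninges, Fkbp5 was called lower in aged than in young vehicle (34.1 against 77.9 CPM, 0.438 times, 0.315 to 0.604), as was Hsd11b1 (14.2 against 35.5 CPM, 0.400 times, 0.238 to 0.657), where 0.314% of genes were called lower. At resolution 2 the Hsd11b1 ratio was 0.486 on fewer than 50 UMIs and was not called. The meningeal clusters of young and aged vehicle also differed in the summed markers of pericytes and smooth muscle (893 and 1441 CPM) and of microglia (398 and 602 CPM), with less difference in those of endothelium (696 and 747 CPM) and blood (4226 and 3639 CPM); their part in the result was not tested.

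**Figure D4:**
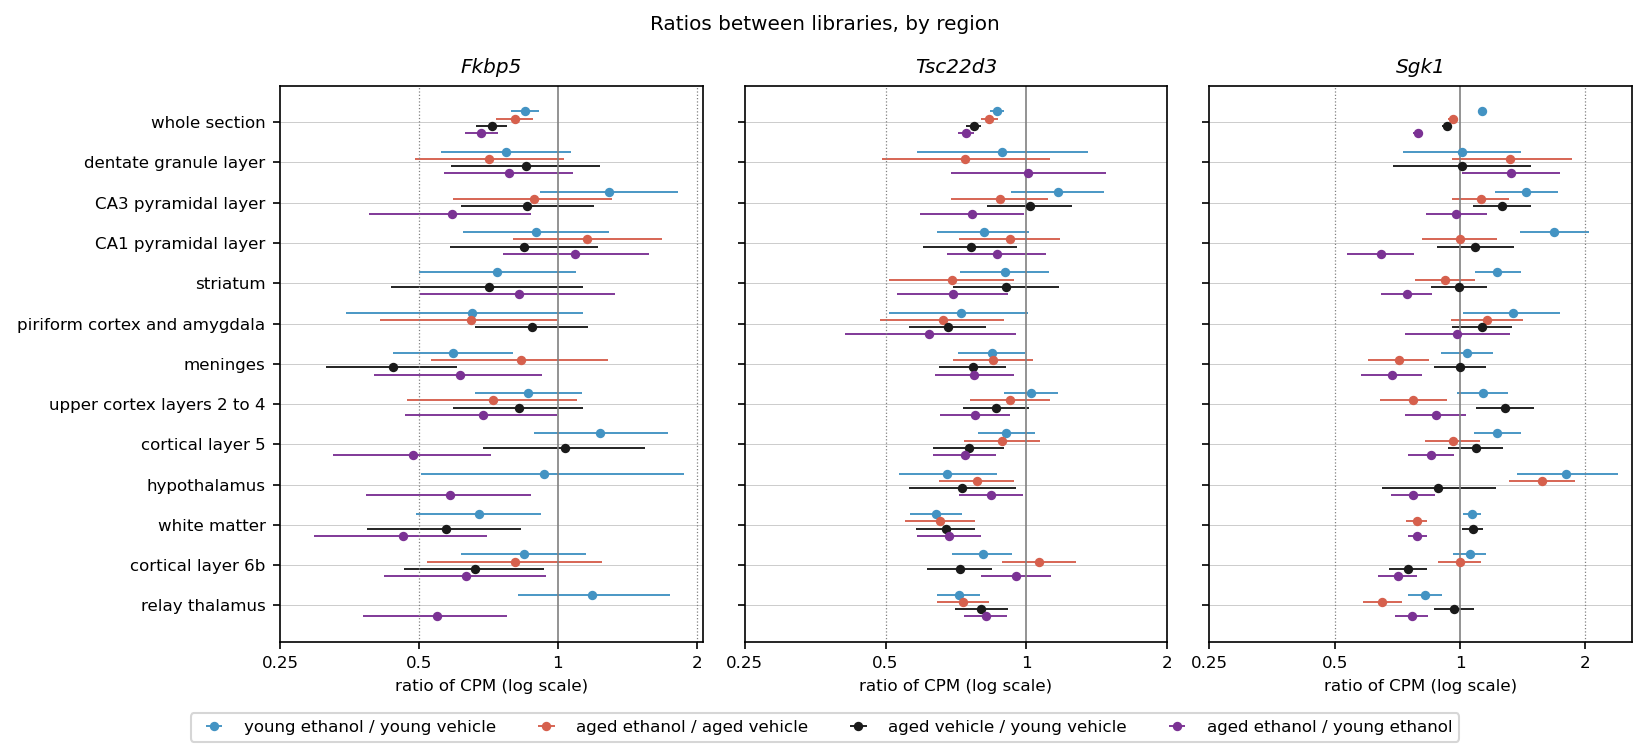
Ratio of CPM between libraries (x axis, logarithmic) over the section and in 12 regions (y axis) for Fkbp5, Tsc22d3 and Sgk1, with 1 point for each of the 4 comparisons and bars for the exact conditional 95% interval; dotted lines mark 2-fold, and a region is shown only where the fuller library held 50 UMIs or more. Most Tsc22d3 ratios lie below 1 in all 4 comparisons, and 10 of 11 regional Fkbp5 ratios of aged to young ethanol lie between 0.461 and 0.826.

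Tsc22d3 followed the same order of libraries as Fkbp5, at 132, 114, 102 and 84.6 CPM over the section. Ethanol libraries had 0.865 (0.837 to 0.895) and 0.832 (0.798 to 0.868) times the vehicle level in young and aged, and aged libraries 0.772 (0.743 to 0.801) and 0.742 (0.713 to 0.771) times the young level with vehicle and ethanol. Of all genes, 12.1%, 17.8%, 2.45% and 4.07% lay as far in that direction in the same order. By region, the ratio was below 1 in 10 of 12, 11 of 12, 10 of 11 and 11 of 12 regions tested, with medians of 0.826, 0.816, 0.759 and 0.776, and no region reached 2-fold.

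In white matter Tsc22d3 stood at 262 CPM in young vehicle and 168 CPM in young ethanol (0.642 times, 0.564 to 0.730), and at 176 CPM in aged vehicle and 115 CPM in aged ethanol (0.653 times, 0.550 to 0.775). Both passed 1.5-fold, but so did 5.03% and 5.19% of genes in that region. White matter of the ethanol libraries also had more microglial and reactive astrocyte transcripts. The 7 microglial markers summed to 688, 1884, 742 and 1311 CPM. The 4 reactive astrocyte markers summed to 604, 1336, 790 and 1213 CPM, with every marker of both lists detected in each library. The 6 general astrocyte markers went the other way, at 1969, 1854, 2013 and 1801 CPM. Oligodendrocyte markers summed to 42012, 38422, 44662 and 41584 CPM. The part of these markers in the Tsc22d3 ratios was not tested.

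Sgk1 did not share that order. It stood at 215, 243, 201 and 193 CPM over the section, higher with ethanol in young (1.13 times, 1.102 to 1.16) and close to level in aged (0.961 times, 0.933 to 0.989, but 1.01 with median-of-ratios size factors). Aged ethanol had 0.793 times (0.772 to 0.814) the young ethanol level, and 11 of 12 regions had a ratio below 1. White matter, the region highest in Sgk1, held 7.29%, 8.12%, 8.25% and 9.35% of spots. How far these shares bear on the section ratios of Sgk1 is not given here. In CA1, young ethanol had 143 CPM and the other libraries 85.0 to 92.5 CPM, a ratio of 1.69 (1.39 to 2.05) over young vehicle, past 1.5-fold as were 1.95% of genes there. In the hypothalamus Sgk1 was higher in ethanol than in vehicle libraries at both ages (180 against 100.1 CPM and 139 against 88.4 CPM), past 1.5-fold as were 8.26% and 5.38% of genes there, in a cluster whose share of spots also differed between sections. The 8 oligodendrocyte markers summed there to 3292, 5397, 3118 and 6288 CPM, also higher in the ethanol libraries, and their part in the result was not tested.

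Zbtb16 was called over the section. Its level was 2.39 CPM (1.99 to 2.84) in young vehicle, 1.75 CPM (1.43 to 2.12) in young ethanol, 0.696 CPM (0.476 to 0.982) in aged vehicle and 1.496 CPM (1.17 to 1.88) in aged ethanol. Aged vehicle was 0.292 times young vehicle (0.191 to 0.433), where 0.105% of genes were called lower, and aged ethanol was 2.15 times aged vehicle (1.40 to 3.37), where 0.687% were called higher. With region shares set equal the latter ratio was 1.86, under the 2-fold limit, and the former 0.277. Both calls turn on the 32 UMIs of the aged vehicle library, and no region held enough UMIs for the comparison.

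Over the section, of the receptor chaperones, coregulators and steroid enzymes, none was called in any of the 4 comparisons (10, 10 and 6 genes tested). Of the induced genes, 1 of 36 was called higher in young ethanol against young vehicle and 0 lower, 0 of 35 in either direction in aged ethanol against aged vehicle, 1 of 35 lower in aged against young vehicle, and 4 of 36 lower in aged against young ethanol, where 1.23%, 0.687% and 0.988%, 0.105% and 0.319% of all genes were called in the same directions. The median log2 ratios of the list were 0.02, −0.08, −0.09 and −0.18, beside 0.00, −0.07, 0.02 and −0.05 over all genes.

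Plin4 was lower in aged than in young libraries with vehicle (4.13 against 8.86 CPM, 0.466 times, 0.392 to 0.553) and with ethanol (3.95 against 9.04 CPM, 0.437 times, 0.368 to 0.516). Arrdc2 (0.478 times, 0.441 to 0.519), Hif3a (0.499, 0.390 to 0.634) and the acute phase gene Lcn2 (0.105, 0.0719 to 0.150) were the others lower in aged than in young ethanol. Lcn2 was the one called higher in young ethanol (391 UMIs against 17 in young vehicle, 20.8 times, 12.8 to 36.1). Among other steroid receptors the oestrogen receptor Esr1 was lower with ethanol at both ages (0.443 and 0.441 times). The share of spots in the hypothalamic cluster was larger with ethanol at both ages. That of piriform cortex and amygdala was smaller (5.60%, 1.11%, 4.44% and 2.54%). An unnamed cluster with Esr1 among its leading genes held 24, 0, 1 and 0 spots. The part of these shares in the Esr1 ratios was not tested. In white matter, 5 of 27 induced genes tested were lower in aged than in young ethanol, with Cdkn1a (0.342), Mfsd2a (0.411), Arrdc2 (0.427) and Dusp1 (0.452) the lowest, beside 0.518% of all genes, and 3 of 25 were lower in aged ethanol than in aged vehicle, beside 0.762%. In the first of these the list's median log2 ratio was −0.36 against −0.06.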

How the data were processed

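UMI counts per gene and spot were used as the authors deposited them, in 1 matrix; Space Ranger made them, as version 1.3.1 per the file headers and as version 2.0.0, on build mm10, per the submitters' processing notes. Whether libraries were subsampled when joined is not given in the sources used here. Spots under 500 UMIs were dropped. Clusters came from 1521 features, 30 principal components, 15 neighbours and Leiden clustering at resolution 1 (leidenalg 0.10.2), and regions were named from marker lists. A spot holds several cells, so no doublet caller was run. Spot barcodes mark grid positions and recur between libraries (3481 of 4187). Sums per region and library were divided by all their UMIs to give CPM; a zero took 3 UMIs in ratios, as a bound. The call rules were tested on simulated counts. An additive model of age and gavage was not fitted. The CA2 comparison was not made, since no cluster carried that name. The 7 genes, the lists and the rule for named genes (all 7, up to 4 called members of a list, 3 most alike genes) were chosen with earlier results of these data known. Some items of the lists are not reported here.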

Additional observations from a re-analysis of the deposited data

Results flagged for a closer look

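The ratios of Sgk1 lay on opposite sides of 1 in young and aged mice: over the section the ratio of ethanol to vehicle was 1.13 in young and 0.961 in aged libraries, and in white matter 1.07 and 0.787. Zbtb16 did so the other way round, at 0.733 in young and 2.15 in aged. Each group held a single library, so the difference between ages was not tested in any of these cases; the aged section ratio of Sgk1 was 1.01 with median-of-ratios size factors.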

How the results depend on the processing

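No paired analysis was possible because each group held 1 library and the labels give no replicate numbers. The 7 regional calls of single genes and the Sgk1 call of white matter against cortex were kept under every alternative that gave them a value; at resolution 2, CA1 and piriform cortex fell under 20 spots in a library and gave none. Leaving out 1 library gave 8 to 9 calls against the rest and 1 to 2 in region pairs, the added ones being Sgk1 (lower in the dentate, CA1 or upper cortex), Nr3c2 in the hypothalamus, Zbtb16 in the striatum and Fkbp5 in the dentate against CA1. A 1.5-fold limit gave 18 calls against the rest in place of 7, 6 in pairs in place of 1, and within regions 10, 8, 6 and 12 in place of 0, 0, 2 and 2 (ethanol against vehicle in young and in aged, then aged against young with vehicle and with ethanol). At that limit, 0.914% to 18.5% of genes a region and direction passed against the rest, and 0.71% to 22.6% in pairs. Within regions the shares were 0.913% to 12.4%, 1.63% to 12%, 0.694% to 6.46% and 1.05% to 5.69%. In the same order, a minimum of 20 UMIs gave 1 and 1 in place of 0 in the first pair (Hsd11b1 in piriform cortex, 0.449, and in the dentate, 0.388) and 3 in place of 2 in the third (adding Fkbp5 in relay thalamus, 0.460). Resolution 0.5 gave 2 within regions for young ethanol (Hsd11b1 in meninges, 0.445, and piriform cortex, 0.398), 1 for aged against young ethanol and 2 in pairs. Resolution 2 gave 1 for young ethanol (Sgk1 in hypothalamus, 2.06), 1 for each age comparison and 2 in pairs; the age calls lost there, Fkbp5 in white matter (0.375) and Hsd11b1 in meninges (0.486), stayed past 2-fold but held fewer than 50 UMIs. Leaving out mitochondrial genes or using median-of-ratios size factors gave 1 for aged against young ethanol. With equal region shares the section count of aged ethanol against aged vehicle was 0 in place of 1. The Nr3c2 share in CA3 was 76.2% at resolution 2, Nr3c2 in CA1 106 CPM at resolution 0.5, and Sgk1 in white matter 1676 CPM at resolution 2. The scaling alternatives shifted the median of all genes by at most 0.070 on the log2 scale. Depth limits Zbtb16 in every region.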
